A study of Mus musculus with 12 samples.

Results

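Lipid droplet coat and lipolysis genes form a group of 10 among the 19938 genes measured in these mouse livers, and 9 of the 10 passed the test between sh Grb14 and sh scramble livers, as did 65.3% of all genes. Cidec, Plin2, Pparg, Pnpla2 and Plin3 were higher in sh Grb14 livers, Plin5, G0s2, Cideb and Cidea were lower, and Plin4 did not pass the test. The 10 were named by role (perilipins, CIDE proteins, the lipase gene Pnpla2 and its inhibitor gene G0s2, and the regulator Pparg). Each was read from the array's probe set that names that gene and no other, and each of the 10 had exactly 1 such probe set.

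A lipid droplet is a store of triglyceride and sterol ester wrapped in a single layer of phospholipid and a coat of proteins. Perilipins cover the surface and control the access of lipases, CIDE proteins join droplets and let them grow, and ATGL, the product of Pnpla2, makes the first cut in a triglyceride with CGI-58 (Abhd5) as its activator and G0S2 as its inhibitor. PPAR-gamma, encoded by Pparg, is a nuclear receptor that pairs with RXR and is best known as the driver of fat cell formation. It is normally low in liver, and in fatty mouse liver it is known to switch on Cidec, Cidea, Plin4 and other fat storage genes.

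The livers came from 12 C57Bl/6J mice, 10 weeks old at injection, which all received a recombinant adenovirus into a vein and were fed when studied on day 7. In 6 of them the virus expressed a hairpin RNA aimed at Grb14 (sh Grb14), and in the other 6 a control hairpin (sh scramble). Grb14 is an adapter protein that binds and inhibits the insulin receptor. Both groups carried the virus, 1 hairpin sequence stood for each of them as far as the labels tell, uninfected livers were not analysed here, and sex was not given in the sources used here. Each liver gave 1 Affymetrix whole-transcript array, whose deposited log2 values lay between 2.742 and 14.24. Grb14 itself averaged 8.24 ± 0.13 in sh Grb14 livers and 10.15 ± 0.063 in sh scramble livers (SD, n = 6 each).

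Levels below are log2 values, changes are sh Grb14 minus sh scramble on the log2 scale, and a gene passed the test when its limma p, adjusted by Benjamini-Hochberg over all 19938 genes, was under 0.05. This threshold was passed by 65.3% of all genes, 25.8% higher and 39.5% lower in sh Grb14 livers, so a passed test alone does not set a gene apart here. The groups did not overlap in 41.2% of all genes, and the median change of all genes was −0.10. Rises made up 39.5% of the genes past the test, and 23.0% when each array was centred on its median over the genes tested, which moved the median change of all genes to −0.25. No member changed direction under that scaling. Each sample is labelled as a mouse of its own, and the p-values measure the spread between these mice.

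Before the values, the RefSeq promoter sequences (GRCm38.p6) of 3 members are shown, because these 3 carry the largest contrasts within the group: Plin5 was the member with the largest fall, Cidec the one with the largest rise, and Plin2 the perilipin that rose most. Each is the 250 bases before an annotated start, written 5′ to 3′ on the gene's own strand, here the minus strand for all 5 windows of these genes. Capitals mark the hexamer AGGTCA or its reverse complement TGACCT, the core to which nuclear receptors such as PPAR-gamma and RXR bind.
Plin2, chr4:86670060-86670309: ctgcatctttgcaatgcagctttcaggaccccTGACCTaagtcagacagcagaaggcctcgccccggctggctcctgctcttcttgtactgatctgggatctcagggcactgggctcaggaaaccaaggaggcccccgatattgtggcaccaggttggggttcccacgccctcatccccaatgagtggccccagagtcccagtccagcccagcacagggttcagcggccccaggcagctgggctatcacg
Plin5, chr17:56117549-56117798: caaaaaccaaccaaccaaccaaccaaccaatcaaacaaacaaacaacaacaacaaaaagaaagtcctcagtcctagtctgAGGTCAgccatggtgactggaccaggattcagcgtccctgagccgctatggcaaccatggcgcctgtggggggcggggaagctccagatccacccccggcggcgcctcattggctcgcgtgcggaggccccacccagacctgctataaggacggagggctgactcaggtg
Plin5, chr17:56117299-56117548: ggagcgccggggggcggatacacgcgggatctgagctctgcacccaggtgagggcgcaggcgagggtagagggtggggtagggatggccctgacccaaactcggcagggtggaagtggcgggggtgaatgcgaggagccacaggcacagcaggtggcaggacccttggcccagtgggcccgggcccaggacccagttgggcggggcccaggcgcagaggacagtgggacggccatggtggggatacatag
Cidec, chr6:113435761-113436010: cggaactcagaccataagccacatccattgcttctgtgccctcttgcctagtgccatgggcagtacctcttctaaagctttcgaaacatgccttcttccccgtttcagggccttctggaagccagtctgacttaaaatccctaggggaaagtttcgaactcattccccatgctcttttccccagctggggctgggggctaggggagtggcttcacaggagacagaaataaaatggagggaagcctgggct
Cidec, chr6:113434765-113435014: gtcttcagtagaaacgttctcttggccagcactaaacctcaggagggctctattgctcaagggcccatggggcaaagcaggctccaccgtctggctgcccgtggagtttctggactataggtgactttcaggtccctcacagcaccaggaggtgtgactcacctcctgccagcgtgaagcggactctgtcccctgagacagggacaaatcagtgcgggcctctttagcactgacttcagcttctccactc
Windows were given for 9 of the 10 members, 13 in all. The hexamer, searched on both strands, was in 4 of these 13 windows and in 14.0% of all 32851 promoter windows of the same length. It began at position −218 from the start of Plin2, reversed, and at position −170 from 1 of the 2 starts of Plin5, forward. The other Plin5 window and both Cidec windows did not hold it, and 2 of 3 Pparg windows did. The tandem form that PPAR and RXR bind together is a pair of these hexamers with 1 base between them. Its exact sequence was in 0 of 13 windows, against 0.0335% of all windows. At so low a rate, its absence from 13 windows says nothing about PPAR sites in these genes. The E-box CACGTG was in 0 of 13, against 6.02%. These matches describe letters in a short window, the motifs were chosen after the windows had been seen, and the array does not tell which start was used.

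The tissue and 1 library were checked next. Of 9 measured hepatocyte marker genes, 8 were lower in sh Grb14 livers (39.5% of all genes were) and 1, Alb (serum albumin), did not pass the test. Alb had levels of 13.95 in sh Grb14 and 13.92 in sh scramble livers (change 0.036, adjusted p = 0.215; −0.11 with arrays centred over the genes tested). Alb and Apoa1 sit near the upper end of the array's scale, where a change may read too small, and this was not tested. Apoa1, whose probe set had the next highest mean signal of the list after that of Alb, changed by −0.24, the median change of the list was −0.29, and its summed level (log2 of the summed unlogged values) lay at 16.12 to 16.28 in sh Grb14 and at 16.56 to 16.62 in sh scramble livers. Fewer cells of a type and less RNA per cell cannot be told apart in whole liver, and this holds for every result below. The library of sh scramble mouse 4 stood apart in fat cell genes: 6 of 7 measured adipocyte markers were highest there among the sh scramble livers. Its Adipoq (adiponectin) was 7.25 and its Retn (resistin) 9.04, where the other 5 sh scramble livers had 5.60 to 5.93 and 7.30 to 7.75. The summed adipocyte marker level was 10.05 to 10.24 in sh Grb14 livers, 10.14 to 10.22 in those 5 sh scramble livers and 11.02 in sh scramble 4. Lipe and Fabp4 had the highest mean signal of the list and weigh most in this sum. Without sh scramble 4, Fabp4 changed by 0.86. Adipoq, Lep, Retn and Plin1 changed by −0.32, −0.35, −0.43 and −0.32 there, while Lipe (−0.11) and Ucp1 (−0.064) did not pass. Cfd and Adrb3 were not measured. Because Cidea and Cidec are also fat cell genes, their values are given with and without this library.

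**Figure D1:**
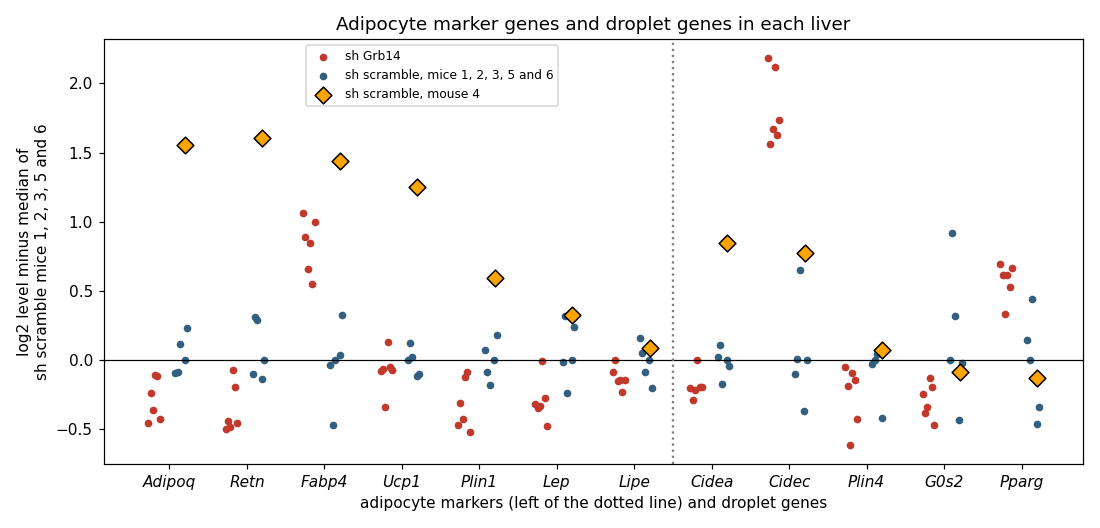
Log2 level minus the median of sh scramble mice 1, 2, 3, 5 and 6 for 7 adipocyte markers (left of the dotted line) and 5 droplet genes, sh Grb14 mice left of sh scramble mice, 1 point per mouse. In sh scramble mouse 4 (diamonds) Adipoq lay 1.55, Retn 1.60, Cidea 0.85 and Cidec 0.77 above that median, while Lipe lay 0.088 above it, inside the range of the other sh scramble livers.

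Among the perilipins, Plin2 and Plin3 rose, Plin5 fell and Plin4 did not pass the test. Plin2, also called adipophilin, is the coat protein found on droplets of most cells, including hepatocytes. Its level was 12.88, 12.64, 12.85, 12.91, 12.77 and 12.73 in sh Grb14 mice 1 to 6, against 12.17, 12.22, 12.21, 12.13, 12.03 and 12.07 in sh scramble mice 1 to 6. Every sh Grb14 liver lay above every sh scramble liver. The change was 0.66 (SE 0.048), 1.58-fold higher (adjusted p = 2.79e-09 by limma; p = 0.00216 by exact permutation, which 2 groups of 6 cannot go below). Plin2 sits near the upper end of the array's scale, where a change may read too small, and this was not tested.

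Plin5 coats droplets in oxidative tissues such as heart and liver and tethers them to mitochondria. It was at 8.27, 8.32, 8.02, 8.17, 8.20 and 8.13 in sh Grb14 mice and at 9.15, 9.21, 9.35, 9.05, 9.04 and 9.09 in sh scramble mice. The groups were clearly separated, with the highest sh Grb14 liver 8.32 and the lowest sh scramble liver 9.04. Plin5 fell by 0.97 (SE 0.064), 1.95-fold lower (adjusted p = 7.72e-10; exact permutation p = 0.00216).

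Plin3 (TIP47) is a broadly expressed perilipin that moves from the cytosol to newly formed droplets. It read 9.56, 9.38, 9.42, 9.46, 9.35 and 9.36 in sh Grb14 mice, against 9.26, 9.20, 9.11, 9.05, 9.04 and 9.10 in sh scramble mice. All sh Grb14 livers were above all sh scramble livers, although the closest pair, sh Grb14 5 at 9.35 and sh scramble 1 at 9.26, was near. The rise was 0.30 (SE 0.051), 1.23-fold (adjusted p = 9.43e-05; exact permutation p = 0.00216), and 0.15 with arrays centred over the genes tested (adjusted p = 0.00777).

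Plin4 coats small new droplets and is most abundant in fat. In sh Grb14 livers it was 7.83, 7.69, 7.27, 7.79, 7.74 and 7.45, against 7.85, 7.88, 7.93, 7.96, 7.46 and 7.96 in sh scramble livers. Of the sh scramble livers 5 lay above every sh Grb14 liver, and mouse 5 fell among them. The change of −0.21 (SE 0.10; 95% interval −0.43 to 0.0070) did not pass (adjusted p = 0.0813; exact permutation p = 0.117), which puts Plin4 with the 34.7% of all genes that did not. This outcome turned on single mice and on scaling: the change was −0.29 without sh scramble mouse 5 (adjusted p = 0.0123), −0.14 without sh Grb14 mouse 3 (adjusted p = 0.203) and −0.36 with arrays centred over the genes tested (adjusted p = 0.00358). Plin4 and Plin5 are neighbouring genes on chromosome 17.

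**Figure D2:**
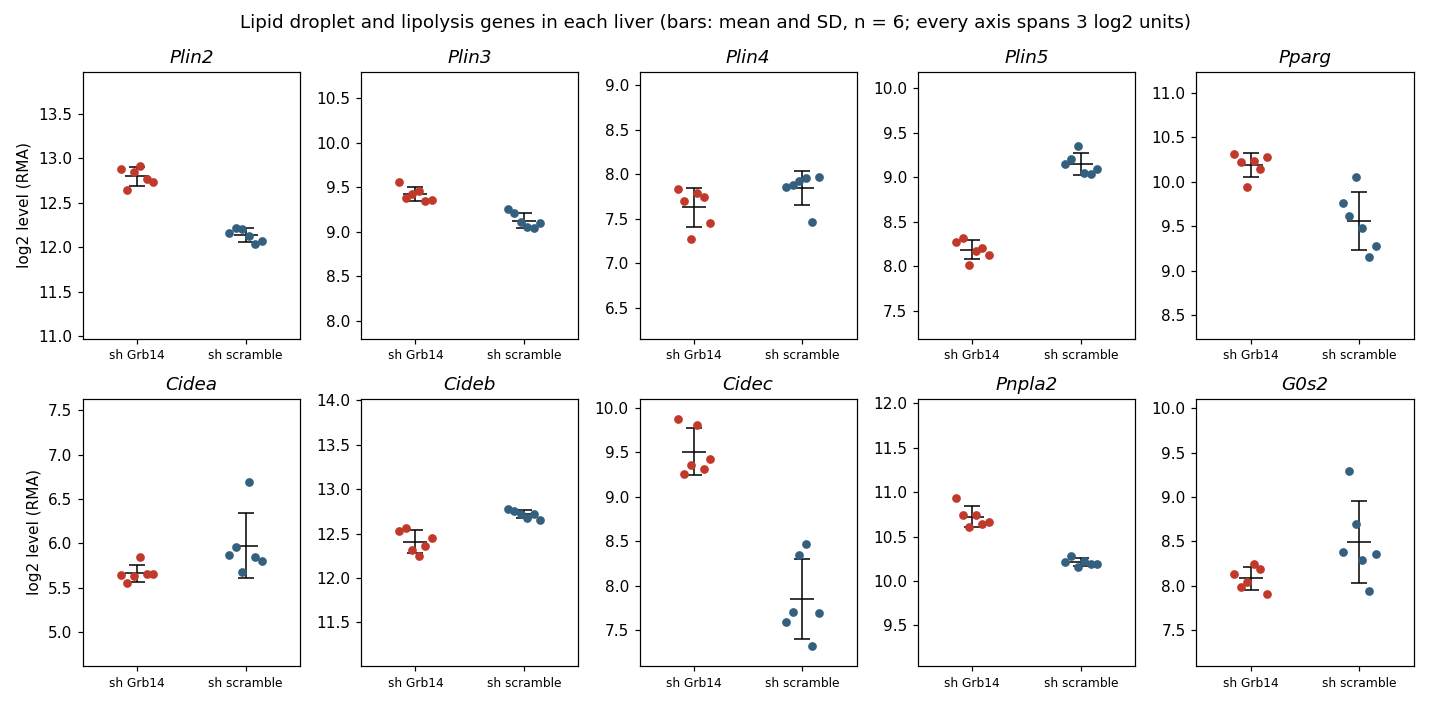
Log2 levels of the 10 genes in each liver, 1 panel per gene with its own axis, sh Grb14 mice left of sh scramble mice, 1 point per mouse and a bar at the group mean with its SD (n = 6 each). Plin2, Plin3, Cidec and Pnpla2 lie entirely higher in sh Grb14 livers and Plin5 and Cideb entirely lower, while Plin4, Cidea, G0s2 and Pparg overlap.

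The 3 CIDE genes did not move together. Cidec (FSP27), which makes droplets fuse into large ones and is strongly expressed in fat cells and in steatotic liver, showed the largest change of the 10. Its levels in sh Grb14 mice were 9.87, 9.26, 9.36, 9.81, 9.31 and 9.42, against 7.59, 7.70, 8.35, 8.47, 7.33 and 7.69 in sh scramble mice. The sh scramble livers spread over more than 1 log2 unit, with mice 3 and 4 highest, and the lowest sh Grb14 liver still lay above them. Cidec averaged 9.51 ± 0.27 in sh Grb14 and 7.85 ± 0.45 in sh scramble livers (SD, n = 6 each). The rise was 1.65 (SE 0.17), 3.15-fold (adjusted p = 2.91e-07; exact permutation p = 0.00216), and without sh scramble 4, the library with high adipocyte markers, it was 1.78 (adjusted p = 5.45e-08).

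Cideb is the CIDE protein of hepatocytes, known for the lipidation of VLDL particles as well as for droplet fusion. Its values were 12.53, 12.56, 12.31, 12.25, 12.36 and 12.45 in sh Grb14 mice and 12.78, 12.75, 12.72, 12.68, 12.72 and 12.66 in sh scramble mice. No sh Grb14 liver reached the lowest sh scramble liver. Cideb fell by 0.31 (SE 0.049), 1.24-fold lower (adjusted p = 3.84e-05; exact permutation p = 0.00216), also near the upper end of the scale. The gene overlaps Nop9 and Ltb4r2 in the annotation.

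Cidea, known from brown fat and from fatty liver, was dim. Its levels were 5.64, 5.55, 5.63, 5.85, 5.65 and 5.65 in sh Grb14 mice and 5.87, 5.96, 5.68, 6.69, 5.85 and 5.80 in sh scramble mice, below the array's own lower quartile in 5 of 6 sh Grb14 and 1 of 6 sh scramble livers. The groups overlapped, and sh scramble 4 stood far above the rest. The change was −0.31 (SE 0.13; adjusted p = 0.0449; exact permutation p = 0.0152). Without sh scramble 4 it was −0.17 (adjusted p = 0.0401), and leaving out any 1 of 7 other mice took the adjusted p above the threshold, up to 0.0822, as did quantile normalization (0.0849).

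Of the lipolysis pair, the lipase gene Pnpla2 rose and the inhibitor gene G0s2 fell. Pnpla2 was 10.94, 10.74, 10.61, 10.74, 10.64 and 10.67 in sh Grb14 mice, against 10.22, 10.28, 10.16, 10.23, 10.19 and 10.19 in sh scramble mice. The sh scramble livers were tightly grouped, and every sh Grb14 liver exceeded them. Pnpla2 rose by 0.51 (SE 0.050), 1.43-fold (adjusted p = 1.24e-07; exact permutation p = 0.00216).

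G0s2 binds the lipase domain of ATGL and blocks it, and the gene is a known target of PPAR factors. It was 8.13, 7.99, 8.04, 8.25, 8.19 and 7.91 in sh Grb14 mice and 8.38, 9.30, 8.70, 8.29, 7.95 and 8.36 in sh scramble mice. The groups overlapped, since sh scramble 5 was as low as the sh Grb14 livers, and sh scramble 2 was the highest by a wide margin. The change was −0.41 (SE 0.16), 1.33-fold lower (adjusted p = 0.0333; exact permutation p = 0.0346), and −0.25 without sh scramble 2 (adjusted p = 0.0498). It no longer passed when any one of sh Grb14 2, 3 or 6 or sh scramble 3 was left out (adjusted p up to 0.0687).

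Pparg, the regulator, rose. Its level was 10.31, 10.23, 9.95, 10.23, 10.14 and 10.28 in sh Grb14 mice, against 9.76, 9.62, 10.05, 9.48, 9.15 and 9.27 in sh scramble mice. The single overlap was between sh Grb14 3, the lowest of its group, and sh scramble 3, the highest of its own. Pparg averaged 10.19 ± 0.13 in sh Grb14 and 9.56 ± 0.33 in sh scramble livers (SD, n = 6 each), a rise of 0.63 (SE 0.12), 1.55-fold (adjusted p = 0.000212; exact permutation p = 0.00433). The probe set does not separate the transcripts that start at different Pparg promoters. Macrophages and fat cells express Pparg and Plin2 as well, and the macrophage markers of the same livers are given with the PPAR-gamma targets below.

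Counted together, 5 of the 10 rose (25.8% of all genes), 4 fell (39.5%) and 1 did not pass (34.7%), so 9 passed where 65.3% of all genes did. The groups did not overlap in 6 of 10, against 41.2% of all genes. A change of at least 1.5-fold past the test was seen in 4 (Cidec, Plin5, Plin2 and Pparg), against 18.8% of all genes, and 3 of these were higher, against 11.5%. The median change of the 10 was 0.042 and the median absolute change 0.46, against −0.10 and 0.23 over all genes. The number of falls was the unsteady count: it was 2 without sh Grb14 mouse 2, 3 or 6, and 5 without sh scramble mouse 5, while it was 4, with 5 rises, without sh scramble mouse 4. With only 10 genes of known and differing roles, these shares are descriptions.

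Individual mice kept a place across several of the genes. sh scramble mouse 5 was the lowest of its group in 7 of 10 genes (Plin2, Plin3, Plin4, Plin5, Cidec, G0s2 and Pparg). sh Grb14 mouse 1 was the highest of its group in 5, and sh Grb14 mouse 3 the lowest in 4. The SD was smaller in the sh Grb14 group for 6 of the 10 genes, among them G0s2 (0.13 in sh Grb14 and 0.46 in sh scramble livers) and Pparg (0.13 and 0.33 in the same order of groups). These places and SDs were counted for the 10 genes only, and no share over all genes is available beside them. Whether they belong to these genes or to the arrays as a whole was not tested.

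Differences taken within each liver show how unequally paired genes changed, while the size of such a difference in 1 group says nothing about which gene is more abundant. G0s2 minus Pnpla2, the inhibitor against its lipase, averaged −2.64 ± 0.15 in sh Grb14 and −1.72 ± 0.44 in sh scramble livers (SD, n = 6 each), with ranges of −2.80 to −2.46 and −2.24 to −0.99. It was thus lower in every sh Grb14 liver, with a mean change of −0.92, or 1.89-fold lower. Cidec minus Cideb averaged −2.90 ± 0.31 in sh Grb14 and −4.87 ± 0.47 in sh scramble livers, 3.90-fold apart.

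Among perilipins, Plin2 minus Plin5 was 4.61 ± 0.18 in sh Grb14 and 2.99 ± 0.073 in sh scramble livers, 3.08-fold apart. Plin4 minus Plin5 was −0.56 ± 0.15 in sh Grb14 and −1.31 ± 0.18 in sh scramble livers, 1.69-fold apart. The groups were separate in all 4 differences, each of which holds at least 1 gene whose groups were separate by itself. No test was run on these differences, since their parts had already been compared one by one.

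**Figure D3:**
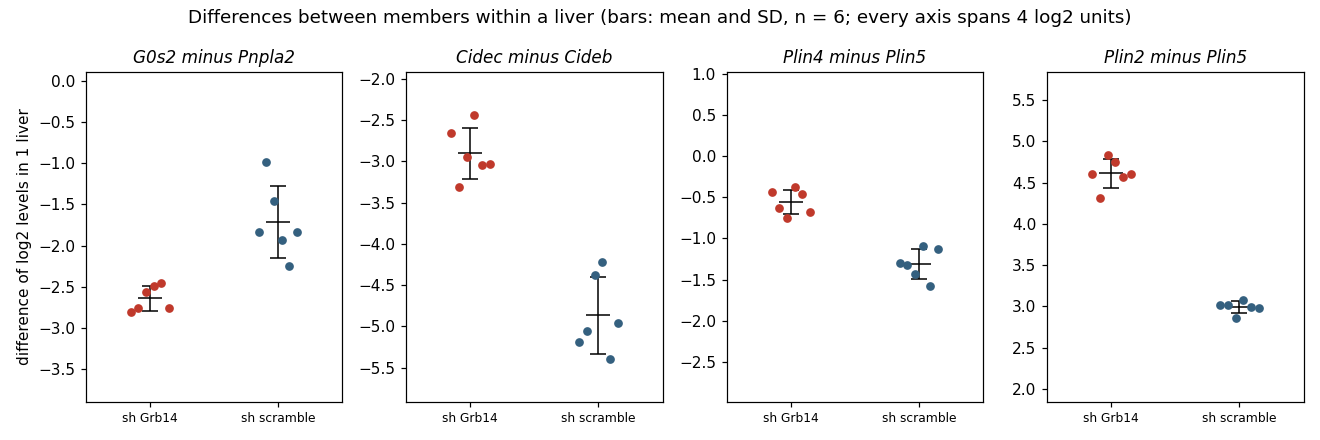
Differences between the log2 levels of paired genes within each liver, sh Grb14 mice left of sh scramble mice, 1 point per mouse with the group mean and SD (n = 6 each). Plin2 minus Plin5 lies at 4.32 to 4.83 in sh Grb14 and at 2.86 to 3.08 in sh scramble livers, and the groups do not overlap in any of the 4 panels.

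In the wider droplet and lipolysis machinery Hilpda rose most, and Fitm1 and Mgll fell most. Of 16 further genes, all measured, 3 rose (25.8% of all genes did), 10 fell (39.5%) and 3 were not past the test (34.7%). Their median change was −0.30 against −0.10 over all genes, and 9 did not overlap between groups (41.2% of all genes). After quantile normalization 5 rose. The largest rise was that of Hilpda, a small droplet protein that inhibits ATGL and is induced by hypoxia and fatty acids. It lay at 8.19 to 8.55 in sh Grb14 and at 6.56 to 6.83 in sh scramble livers, with means of 8.39 ± 0.15 and 6.74 ± 0.10 in that order. The rise of 1.65 (SE 0.072) was 3.15-fold (adjusted p = 4.41e-12). So of the 2 ATGL inhibitor genes measured, G0s2 was lower and Hilpda higher in sh Grb14 livers.

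Abhd5, Lipe and Mgll, which act with or after Pnpla2 in lipolysis, did not rise with it. Abhd5, the ATGL activator, averaged 10.36 in sh Grb14 and 10.63 in sh scramble livers and fell by 0.27 (SE 0.080; adjusted p = 0.00747), with a change of −0.42 when arrays were centred over the genes tested. Lipe, hormone-sensitive lipase, was 8.79 and 8.92 in the same order, and its change of −0.13 (SE 0.061) was not past the test (adjusted p = 0.0727), although it was with arrays centred over the genes tested (−0.28), under quantile normalization (−0.22) and when sh Grb14 mouse 2 (−0.15) or sh scramble mouse 6 (−0.17) was left out. Mgll, monoglyceride lipase, which releases the last fatty acid, lay at 9.29 to 9.63 in sh Grb14 and at 10.34 to 10.66 in sh scramble livers. It fell by 1.13 (SE 0.068), 2.19-fold lower (adjusted p = 2.54e-10). Others past the test included Pnpla3, a relative of Pnpla2, which fell by 0.41 (SE 0.086). Lipa, a further lipase gene of the list, rose by 0.25 (SE 0.042; adjusted p = 6.15e-05), with no overlap between groups.

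Of the genes of droplet formation, Fitm1 and Fitm2 fell. Fitm1, a fat storage-inducing protein of the endoplasmic reticulum, averaged 9.30 ± 0.25 in sh Grb14 and 10.59 ± 0.35 in sh scramble livers (SD, n = 6 each) and fell by 1.29 (SE 0.14), 2.45-fold lower (adjusted p = 5.42e-07). Fitm2, its close relative, fell by 0.62 (SE 0.056; adjusted p = 4.31e-08). Bscl2 (seipin), which shapes the site where droplets bud, had a change of 0.12 (SE 0.051; adjusted p = 0.0581), and Hsd17b11, a dehydrogenase found on droplets, one of 0.082 (SE 0.042; adjusted p = 0.0929), neither past the test. Both passed after quantile normalization (0.13 and 0.11), as did Bscl2 without sh Grb14 mouse 4 or 5 and Hsd17b11 without sh Grb14 mouse 2, and both lay below 0 (−0.031 and −0.065) with arrays centred over the genes tested. Plin1, the perilipin of fat cells, fell by 0.42 (adjusted p = 0.00500), and by 0.32 (adjusted p = 0.00735) without sh scramble 4, where it was highest.

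Several partners and coregulators of PPAR-gamma fell, while none of the targets placed on this list did. The list leaves out targets of PPAR factors named above among the 10 members. Of these, Cidec rose (1.65), Cidea (−0.31) and G0s2 (−0.41) fell, and Plin4 (−0.21) did not pass. The list described here held 13 measured genes. Rises numbered 5 (25.8% of all genes rose), falls 4 (39.5%) and genes not past the test 4 (34.7%), and 6 genes showed no overlap (41.2%). The falls were all in partners and coregulators (Rxra, Rxrb, Ppargc1a and Ppargc1b). The rises were those of the targets Lpl, Cd36, Fabp4 and Aqp7 and of the coregulator Nrip1. The targets Mogat1, Angptl4 and Acp5 and the coregulator Med1 did not pass. The median change was 0.11 against −0.10 over all genes. The count of rises was 3 without sh Grb14 mouse 1, after quantile normalization and with arrays centred over the genes tested. Rxra, the binding partner, averaged 11.21 in sh Grb14 and 11.76 in sh scramble livers and fell by 0.55 (SE 0.062; adjusted p = 7.18e-07). Ppargc1a, the coactivator PGC-1 alpha, averaged 8.40 ± 0.36 in sh Grb14 and 9.25 ± 0.21 in sh scramble livers and fell by 0.85 (SE 0.14; adjusted p = 5.18e-05).

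Targets that handle fatty acids at the cell surface showed the largest rises. Cd36, a fatty acid translocase, lay at 11.83 to 12.18 in sh Grb14 and at 9.55 to 10.50 in sh scramble livers, a rise of 2.05 (SE 0.12), 4.14-fold (adjusted p = 1.36e-10). Lpl, lipoprotein lipase, lay at 11.58 to 11.94 in sh Grb14 and at 8.91 to 9.92 in sh scramble livers (change 2.50, SE 0.13; adjusted p = 5.87e-11). Fabp4, a fatty acid carrier of fat cells and macrophages, rose by 0.62 (SE 0.22; adjusted p = 0.0240). Its rise was 0.86 without sh scramble 4 (adjusted p = 1.40e-05), and it was not past the test without sh Grb14 1, sh scramble 1 or sh scramble 2 (adjusted p up to 0.0613) or after quantile normalization (0.0615) or centring over the genes tested (0.47, adjusted p = 0.0652). Aqp7, a glycerol channel, rose by 0.49 (SE 0.087; adjusted p = 0.000129).

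Macrophages are known to express Cd36, Lpl, Fabp4, Pparg and Plin2, and their markers were higher in the same livers. All 12 measured macrophage markers rose, with a median change of 1.79. Beside this and the marker counts below, 25.8% of all genes rose, 39.5% fell and 34.7% did not pass. Their summed level was 14.16 to 14.49 in sh Grb14 and 12.65 to 12.98 in sh scramble livers, and none of them was below the lower quartile in either group's mean. Lyz2 (lysozyme) and Csf1r (the CSF1 receptor), the list's probe sets with the highest mean signal over the 12 arrays, rose by 1.07 and 1.35. Spp1 was not measured. Of 9 Kupffer cell markers 4 rose and 5 did not pass (median 0.22). Those not past the test were Clec4f (−0.063), Timd4 (−0.054), Cd163 (−0.14), Marco (0.13) and Vsig4 (0.22). C1qb and Cd5l, up by 1.36 and 1.79, had the highest mean signal of the list. They weigh most in its summed level, which was 14.03 to 14.30 in sh Grb14 and 12.74 to 13.16 in sh scramble livers. The part of these cells in the changes of Pparg, Plin2, Cd36, Lpl and Fabp4 was not tested.

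Markers of other blood cells were mostly higher as well. Of 10 T and cytotoxic cell markers 9 rose and 1 fell (median 1.82; Cd3e 1.86 and Nkg7 3.24), with summed levels of 12.51 to 12.87 in sh Grb14 and 10.51 to 10.64 in sh scramble livers. Of 8 neutrophil markers 6 rose and 2 did not pass (median 1.40; Csf3r 1.74 and S100a9 1.31), with summed levels of 10.57 to 11.14 in sh Grb14 and 9.43 to 9.72 in sh scramble livers. In the adipocyte list 1 of 7 measured genes, Fabp4, rose, 4 fell and 2 did not pass (median −0.40), and 3 of the 7 were below the lower quartile in the sh Grb14 mean. The library of sh scramble mouse 4 enlarged the falls: without it the change of Adipoq was −0.32 in place of −0.57 and that of Retn −0.43 in place of −0.69. The part of fat cells in the changes of the droplet genes was not tested beyond the values without that library.

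**Figure D4:**
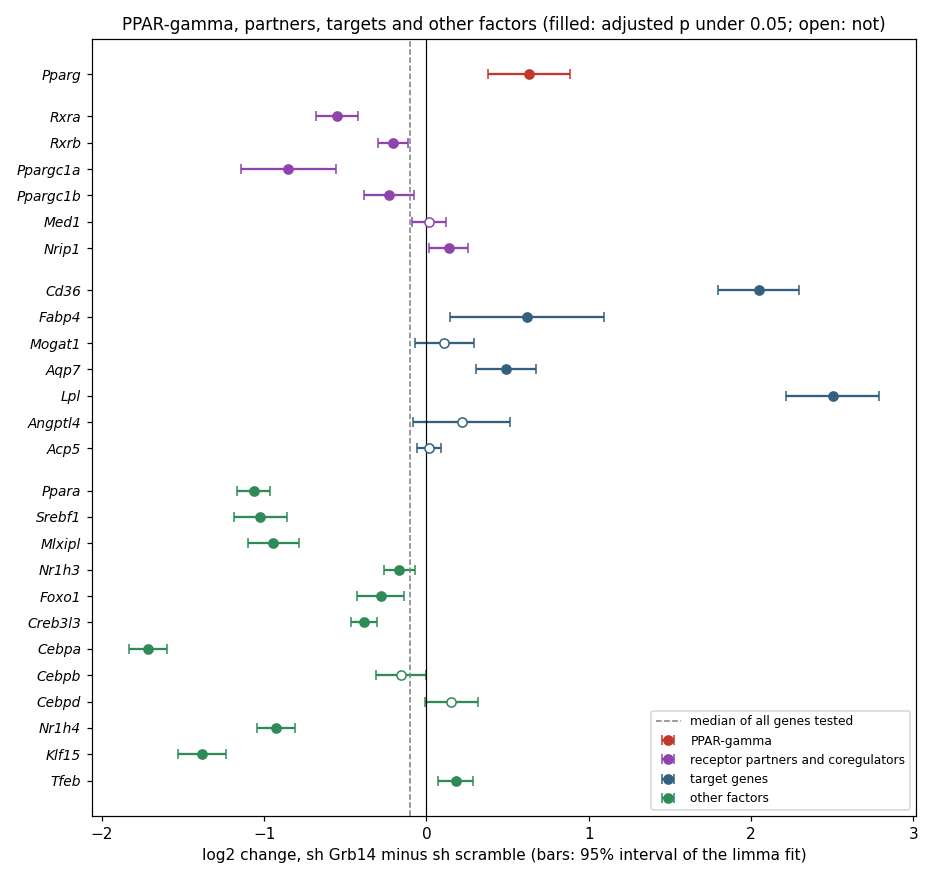
Log2 changes, sh Grb14 minus sh scramble, with 95% intervals for Pparg, its measured partners and targets, and transcription factors known to act on droplet genes. Lpl at 2.50 and Cd36 at 2.05 are the largest rises, and Cebpa at −1.71 and Klf15 at −1.38 the largest falls.

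Of 12 transcription factors that act on droplet genes, all measured, 9 fell (39.5% of all genes did), 1 rose (25.8%; Tfeb, a regulator of lysosome genes, by 0.18) and 2 were not past the test. The median change was −0.66 against −0.10 over all genes, and 8 showed no overlap (41.2%). The count of rises was 0 after quantile normalization and with arrays centred over the genes tested, and 2 without sh Grb14 mouse 3 or sh scramble mouse 4. Cebpa, a hepatocyte and fat cell factor that works with PPAR-gamma in fat, lay at 9.81 to 10.08 in sh Grb14 and at 11.51 to 11.79 in sh scramble livers, a fall of 1.71 (SE 0.055), 3.28-fold (adjusted p = 1.23e-13). Klf15, a factor of fasting metabolism and of fat cells, fell by 1.38 (SE 0.070), 2.61-fold lower (adjusted p = 2.94e-11).

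Ppara, the PPAR of fatty acid oxidation, for which Plin5, Plin2 and G0s2 are known targets, averaged 10.29 in sh Grb14 and 11.35 in sh scramble livers (change −1.06; adjusted p = 6.49e-12). Srebf1, the insulin-responsive factor of fat synthesis, averaged 10.05 in sh Grb14 and 11.07 in sh scramble livers (change −1.02; adjusted p = 3.66e-09). Cebpb had a change of −0.16 (adjusted p = 0.0670) and Cebpd one of 0.15 (adjusted p = 0.0920), neither past the test. Cebpb passed without sh scramble mouse 2 (−0.19) or 3 (−0.20), with arrays centred over the genes tested (−0.30), after quantile normalization (−0.24) and with array weights (−0.19), and Cebpd without sh Grb14 mouse 3 (0.19) or sh scramble mouse 4 (0.20). So Pparg was higher in the livers where Cebpa, Ppara and Rxra were lower.

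The genes whose 12 values ran closest to those of Cidec and Pparg were found by the mean absolute log2 difference over 12 livers, after subtracting each gene's sh scramble mean. For Cidec they were Lgals1 (galectin-1), Mgst3 (a microsomal glutathione transferase), Rrm2 (a subunit of ribonucleotide reductase), Gm15441 and Galnt7 (a glycosyltransferase), at 0.21 to 0.23. Lgals1, the closest, averaged 12.65 in sh Grb14 and 11.10 in sh scramble livers. For Pparg they were Fosb (an AP-1 factor), Capn1 (a calpain protease), Pltp (phospholipid transfer protein), Peg3 and Pld2 (phospholipase D2), at 0.12 to 0.13. Fosb averaged 7.77 in sh Grb14 and 7.18 in sh scramble livers, and Pltp 10.86 and 10.27 in the same order. The measure takes in the size of the group difference as well as the places of single mice.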

How the data were processed

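Total RNA of 12 livers (6 sh Grb14, 6 sh scramble; 100 ng each, Trizol) was labelled for Affymetrix whole-transcript arrays, per the labels' protocols. The deposited table holds log2 expression values of 35556 probe sets, and the submitters' processing notes name RMA and Partek, with no version, role or order. The sources used here give no settings, probe build, scan dates or batches, and batch was not tested. Array medians lay between 7.06 and 7.17. The 6 arrays per group limit the precision.

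Probe sets were named through the platform annotation: 21789 had 1 symbol, and 1621 with several and 12146 with none were left out. The probe set with the highest mean stood for a gene. All 19938 genes were fitted with limma 3.58.1 in R 4.3.3 (lmFit, eBayes with intensity trend), with Benjamini-Hochberg adjustment over all of them. Exact permutation tests over the mice were two-sided (scipy 1.17.1). On simulated data with 19938 genes, 100 genes were given a log2 change of 0.5 and 100 a change of 1. Of these, 91% and 99% were recovered, with 15 false calls. Far fewer genes changed there than passed here (65.3%), so these rates may not carry over. Intervals cover 95%.

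The members and gene lists were chosen with earlier results of these data known. The genes named were the members and Grb14; in each other list that is not a cell type list, the 3 genes past the test with the largest change and no overlap, and the genes not past it where 3 or fewer were; Rxra, Ppara, Srebf1, Abhd5, Lipe and Mgll; the 2 markers of each cell type with the highest mean signal over 12 arrays; and the 5 genes most like Cidec and Pparg. Pnpla3, Lipa, Fitm2, Plin1, Aqp7, Tfeb and the markers of sh scramble mouse 4 were named after their values were seen. So were Rxrb, Ppargc1b, Nrip1, Med1, Mogat1, Angptl4, Acp5, Clec4f, Timd4, Vsig4, Marco and Cd163. Alternatives were 3 other scalings (centring over all probe sets, centring over the genes tested, quantile), no trend, a filter on dim genes, means over probe sets, array weights, and leaving out each mouse. Lists were described by counts and medians, with no list test.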

Additional observations from a re-analysis of the deposited data

Results flagged for a closer look

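Single mice that lay far from the rest of their group were looked for among 110 gene and group combinations, and 5 were found by a gap to the nearest other mouse above Dixon's critical value for 6 samples. Chance flags about 1 in 20 such groups. Cidea gave 2 of them: sh Grb14 mouse 4 was highest at 5.85, with the next at 5.65, and sh scramble mouse 4 was highest at 6.69, with the next at 5.96. Plin4 was lowest in sh scramble mouse 5 at 7.46, with the next at 7.85. Lpl was lowest in sh Grb14 mouse 2 at 11.58, with the next at 11.85. Klf15 was highest in sh scramble mouse 6 at 10.50, with the next at 10.24. The scan did not cover every gene given here. Its 5 finds leave out Adipoq and Retn, where sh scramble mouse 4 was highest at 7.25 and 9.04, with the next at 5.93 and 7.75.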

How the results depend on the processing

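Plin2, Plin3, Plin5, Cideb, Cidec, Pnpla2 and Pparg kept their direction and stayed past the test under all 19 alternatives. Ranges were 0.51 to 0.71 for Plin2, 0.15 to 0.32 for Plin3, −1.11 to −0.92 for Plin5 and −0.46 to −0.27 for Cideb. They were 1.51 to 1.78 for Cidec, 0.37 to 0.54 for Pnpla2 and 0.49 to 0.73 for Pparg. Fitting without trend, filtering dim genes and averaging probe sets (1 per member) could not move these changes, only their p-values. Plin4 passed at −0.36 with arrays centred over the genes tested (a scaling chosen after seeing the data), at −0.30 after quantile normalization and at −0.28 with array weights, and ran from −0.29 to −0.14 with 1 mouse left out. Cidea did not pass after quantile normalization (−0.27, adjusted p = 0.0849), ran from −0.37 to −0.17 with 1 mouse left out, and had no value under the filter on dim genes, which removed it. G0s2 ran from −0.52 to −0.25 with 1 mouse left out. The number of members lower ran from 2 to 5 there. Centring over the genes tested moved the median of all genes from −0.10 to −0.25, raised the genes lower to 12943 from 7868 and left 23.0% of genes past the test higher, against 39.5%; it also turned Alb to −0.11, Bscl2 to −0.031 and Hsd17b11 to −0.065. Under centring over the genes tested and under quantile normalization, 3 PPAR-gamma partners and targets were higher in place of 5, and 0 transcription factors in place of 1. With 1 mouse left out these counts ran from 3 to 5 and from 1 to 2, and the genes higher and lower from 4923 to 5129 and from 6883 to 8368. Quantile normalization gave 5 other lipolysis and droplet genes higher, against 3. The cause of these moves was not tested. No paired analysis was possible because the replicate numbers only follow the order of the samples. Dim genes such as Cidea, near the bottom of the scale, are the least certain.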

Other observations

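Stellate cells store retinyl esters in lipid droplets. Of 10 measured stellate cell markers 7 rose (25.8% of all genes did), 2 fell (39.5%) and 1 was not past the test (34.7%). The median change was 0.82, with summed levels of 13.01 to 13.45 in sh Grb14 and 12.34 to 12.61 in sh scramble livers. Lrat, the enzyme that makes retinyl esters for those droplets, lay at 9.18 to 9.67 in sh Grb14 and at 9.44 to 10.09 in sh scramble livers and fell by 0.33 (SE 0.11). Reln (reelin), a secreted matrix protein, lay at 9.71 to 10.47 in sh Grb14 and at 10.49 to 10.58 in sh scramble livers and fell by 0.35. Acta2, smooth muscle actin of activated stellate cells and of vessel walls, lay at 11.08 to 11.61 in sh Grb14 and at 8.61 to 9.26 in sh scramble livers and rose by 2.46 (SE 0.11). Des, 1 of the 7 that rose, changed by 0.78 (SE 0.28; adjusted p = 0.0227 by limma; exact permutation p = 0.0541). Its groups overlapped, with sh scramble mouse 6 at 9.88 above every sh Grb14 liver. Lrat and Des were named after their values were seen.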
